A study of Mus musculus with 25 samples.

Results

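The cytosolic ribosomal protein genes encode the protein part of the ribosome that translates messages made in the nucleus. They were taken as the genes whose Ensembl mouse identifier carries a symbol made of Rpl or Rps and a number, with an optional a, x, y or l, together with Rplp0, Rplp1, Rplp2 and Rpsa, and rows named as pseudogenes (-ps) were left out. The rule found 79 of the 14404 genes of the series, with 78 of 11866 in lung, 78 of 12661 in skin and 77 in both. By symbol, 47 in each organ belong to the large and 31 to the small subunit. Of the 83 mouse symbols that fit the rule, Rpl10l, Rpl32l, Rpl3l and Rps4l were not analysed here, Rpl39l was measured in skin alone, and Rpl6l in lung alone. Rpl6l fits by its symbol, but the gene annotation lists it as a processed pseudogene. It stayed in all lung counts. The rule uses no measured value, and all 78 genes of an organ passed the filter on low values in each comparison.

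The study asked what loss of neutrophils does to gene expression in macrophages and fibroblasts of 2 organs. All mice were C57BL/6 and carried Rosa26_DTR, a diphtheria toxin receptor allele, and each was given 10 µg/kg of diphtheria toxin intraperitoneally over 7 days. Depleted mice were Mrp8_CRE; Rosa26_DTR, in which the promoter of Mrp8 (S100a8), active chiefly in neutrophils, drives Cre, and controls were Mrp8_WT; Rosa26_DTR, so the controls had the toxin and the allele but no Cre. Lung interstitial macrophages were gated as CD45+, CD68+, F4/80+, CD11c- and CD11bhi, skin macrophages as CD45+, CD11b+, CD68+ and F4/80+, and fibroblasts as PDGFRA+ without CD45, CD31 or EPCAM, in skin also CD90.1+. Ages were not given in the sources used here. Nothing in the labels says whether libraries of a group came from separate mice, so p-values measure the spread between these libraries, which may be technical.

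The lung libraries formed 4 groups of 3. The skin gave 3 depleted and 3 control fibroblast libraries, 4 depleted macrophage libraries, and 3 libraries labelled as control macrophages, of which 2 went against their label. For control 5 that label is the stated cell type, while its title reads SKIN_MFIBRO_WT5. The libraries labelled skin macrophages control 1 and control 5 listed the leukocyte gene Ptprc at 0.277 and 0.209, against 362 to 878 in the other skin macrophages, and the collagen gene Col1a1 at 15309 and 28883, inside or above the 9118 to 26316 of skin fibroblasts. They were kept apart, and control 3 is then the only skin macrophage control. The other 23 libraries carried the markers of their label: Cd68 was 1078 to 1986 in macrophages and at most 30.02 in fibroblasts, and Pdgfra was 205 to 908 in fibroblasts and at most 14.7 in macrophages. S100a8 signal was 3741 to 10656 in control and 895 to 1175 in depleted lung macrophages. In skin macrophages it was 36.4 in control 3 and 7.04 to 14.6 in the depleted. In fibroblasts the groups overlapped, at 2.89 to 26.7 and 1.94 to 15.5 in lung and 0.0339 to 0.936 and 0.0290 to 26.0 in skin. Values are the deposited normalised signal, a linear scale per library. Lung libraries held an estimated 124075 to 385923 reads, of which 3591 to 12059 fell on ribosomal protein genes, and skin libraries 6553115 to 27259903 reads, of which 301392 to 1738395 did.

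As background, a ribosome holds one copy of nearly every ribosomal protein, so cells make these proteins in step, and proteins made in excess are degraded. Their messages are among the most abundant of a cell and mostly begin with a C followed by a run of pyrimidines, the terminal oligopyrimidine (TOP) tract, through which growth signals sent by the kinase complex mTORC1 set their translation. In macrophages and fibroblasts alike the demand for ribosomes follows growth and secretion, and loss of one gene copy of several members causes Diamond-Blackfan anaemia.

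The start of transcription was read for short motifs in these genes. RefSeq promoters of build GRCm38.p6, each 250 bases before to 50 bases after the start, were matched by symbol for 58 of the 79 genes, giving 69 promoters, and were compared with all 32851 promoters of the same length. A C followed by 4 pyrimidines exactly at the start was found in 18.8% of the ribosomal protein promoters and 2.51% of all promoters. Most of the annotated starts thus did not open exactly on such a tract. A run of at least 5 pyrimidines that opens with C within 10 bases of the start was found in 50.7% and 29.0%. Searched on both strands, CCGGAAG, the core bound by ETS factors, was in 37.7% against 8.86%, and AAGATGGC, the core of the YY1 motif, in 10.1% against 2.75%. CACGTG, the E-box bound by Myc, was in 11.6% against 7.15%, and TATAAA in 8.70% against 13.6%. Such matches describe letters in a window and show no binding. The stretches shown are those of genes on which the results turn and that have an entry, from 60 bases before the start to 25 from it on, with the pyrimidine run near the start in capitals. Rps9 lies on chr7:3703981-3704065 (+), Rpl27a on chr7:109519135-109519219 (+), Rps18 on chr17:33955641-33955725 (-), Rps6 on chr4:86857343-86857427 (-), Rplp2 on chr7:141447591-141447675 (+) and Rplp0 on chr5:115559407-115559491 (+).
Rps9: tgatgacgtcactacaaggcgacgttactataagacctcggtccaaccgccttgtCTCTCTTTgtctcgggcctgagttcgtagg
Rpl27a: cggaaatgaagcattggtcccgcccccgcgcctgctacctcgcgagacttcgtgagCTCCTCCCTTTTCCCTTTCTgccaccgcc
Rps18: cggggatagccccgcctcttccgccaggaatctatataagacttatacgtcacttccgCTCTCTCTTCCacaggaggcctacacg
Rps6: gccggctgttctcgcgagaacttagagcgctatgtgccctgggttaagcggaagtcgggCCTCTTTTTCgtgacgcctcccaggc
Rplp2: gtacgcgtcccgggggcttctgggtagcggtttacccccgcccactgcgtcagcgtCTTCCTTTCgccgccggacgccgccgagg
Rplp0: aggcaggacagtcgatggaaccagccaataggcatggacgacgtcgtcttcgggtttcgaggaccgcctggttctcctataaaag
The run is 20 bases long in Rpl27a, 11 in Rps18, 10 in Rps6, 9 in Rplp2 and 8 in Rps9. The Rplp0 entry has no run of 5 or more that opens with C within 10 bases of its annotated start.

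The genes also tend to be small, and some of them carry intronic cargo. GENCODE M21 (GRCm38) lists 78 of them as protein coding, with a median exon length of 969 bases against 3271 for the 12862 protein-coding genes of the series, and 51.3% were under 1000 bases against 4.95%. Small nucleolar RNAs, which guide the modification of ribosomal RNA, lie on the same strand inside 29 of the 78 (37.2%) and inside 1.73% of the protein-coding genes. Those genes hold 56 small nucleolar RNAs, with 5 in Rpl4 and 4 in Rpl13a. The genes are spread over 19 chromosomes.

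Taken as a share of all signal in a library, the ribosomal protein genes made up 2.79 to 4.67% in lung and 3.14 to 7.25% in skin. In lung macrophages the share was 4.29, 3.09 and 3.77% in control libraries 1 to 3 and 3.21, 4.67 and 4.22% in depleted libraries 1 to 3. Lung fibroblasts were at 2.81, 3.04 and 3.72% in the controls and 2.79, 3.29 and 3.26% in the depleted. The lung ranges of all 4 groups overlap, and the macrophage groups reach higher. Skin macrophages were at 4.60, 5.70, 6.07 and 3.78% in depleted libraries 1, 2, 3 and 5 and at 7.25% in control 3. Skin fibroblasts were at 4.43, 5.46 and 3.93% in depleted libraries 2, 4 and 5 and 4.35, 3.32 and 3.14% in control libraries 3, 4 and 5. The skin macrophage control was the highest library of all, and the depleted and control fibroblast ranges overlap. Of the libraries kept apart, control 1 was at 6.38% and control 5 at 3.37%. In these bulk samples fewer cells of a type and less RNA per cell cannot be told apart.

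**Figure D1:**
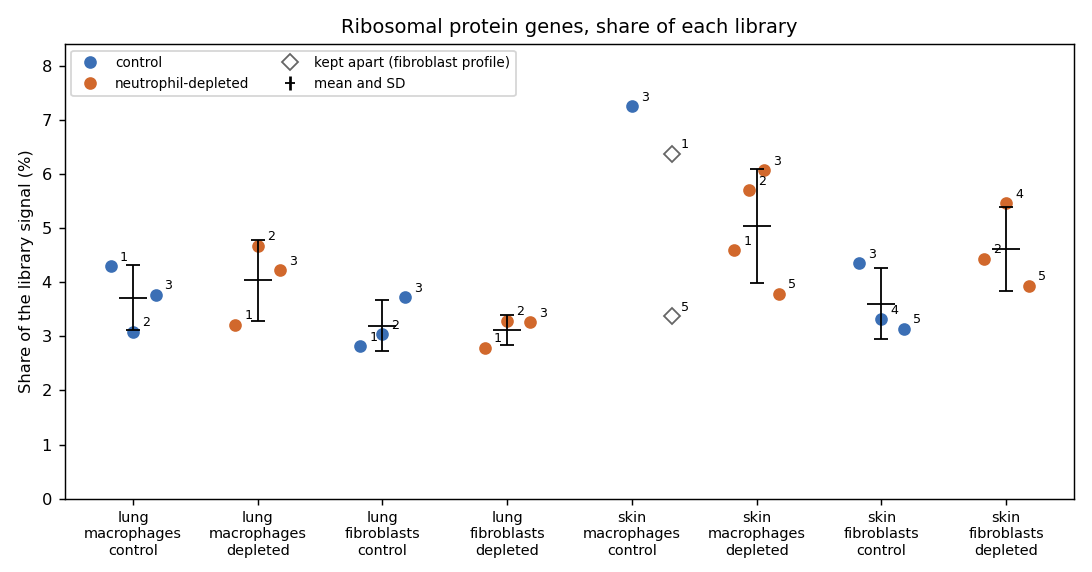
Share of the signal of each library that falls on the ribosomal protein genes (y axis, %) for the 8 groups (x axis), with 1 point per library labelled by its replicate number, bars for the mean and SD, and open diamonds for the 2 libraries kept apart. Shares run from 2.79% in a depleted lung fibroblast library to 7.25% in skin macrophages control 3.

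Within a library, large-subunit genes together carried more signal than small-subunit genes. The ratio of the 2 sums was 1.15 to 1.22 in 6 lung macrophage and 1.23 to 1.29 in 6 lung fibroblast libraries. In skin it was 1.44 to 1.60 in 5 macrophage and 1.61 to 1.74 in 6 fibroblast libraries. The fibroblast ranges lie above the macrophage ranges in both organs, and the skin above the lung. This ratio does not depend on how libraries were scaled to each other.

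Single members differed widely in level even though each protein enters the ribosome as about 1 copy. Per kb of annotated exon, the median member signal was 434 in lung, with a range of 37.8 to 1656, and 53 of 78 lay within 2-fold of the median. In skin the median was 590.3, with a range of 6.43 to 2825, and 50 of 78 lay within 2-fold. The highest per kb in lung were Rps27 at 1656 and Rps29 at 1537, both small-subunit proteins. In skin they were Rpl13 at 2825, Rps27 at 2595 and Rps18 at 2053. The lowest in lung were Rpsa at 37.8, Rps15a at 56.7 and Rps12 at 59.5 per kb, and in skin Rpl39l at 6.43, Rpl22 at 62.7 and Rps15a at 72.5. The annotated exons of Rps15a sum to 5395 bases, the reason for a second measure of length. With the median length of a gene's basic protein-coding transcripts in its place, an alternative chosen after seeing the data, Rps27 was first in both organs, ahead of Rpl13 in skin, and Rpsa (54.5 per kb in lung) and Rpl39l (7.88 in skin) stayed last, with Rps15a still among the lowest 3 at 59.7 and 76.3.

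Tissue-restricted and duplicated members were measured beside their main copies. Rpl39l, a copy of Rpl39 known from the male germ line, was listed in skin fibroblasts at 6.65, 13.2 and 12.5 in the controls and 10.6, 3.51 and 5.47 in the depleted. In skin macrophages it was 5.91, 1.03, 0.107 and 0.377 in the depleted and 2.20 in the control, while Rpl39 itself was 145, 200.4, 267 and 119.7 and 354. Rpl39l was thus far under Rpl39 in all 11 skin libraries compared, and its fibroblast and macrophage ranges overlap. Rps27l, a p53-responsive copy of Rps27, was 292, 280.2 and 258 in control and 397, 406 and 368 in depleted lung macrophages, against 903, 704 and 746 and 674, 972 and 1149.7 for Rps27.

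Between cell types, control lung macrophages were compared with control lung fibroblasts. Of 78 ribosomal protein genes, 13 were higher in macrophages and none lower with limma at a Benjamini-Hochberg adjusted p below 0.05 over all genes tested (called, below), where 12.2% of all genes were called higher. By count, 13 of 78 is near that background. The median log2 difference over members was 0.55, against -0.08 over all genes, and 74 of 78 were above 0. The 3 libraries of each group did not overlap for 33 members, all higher in macrophages, where 18.7% of all genes were separated in that direction and 17.8% in the other. Medians of the large (0.58) and small subunit (0.52) were alike.

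The small-subunit gene Rps9 had one of the lowest p-values in this comparison. Rps9, a protein at the channel through which messages enter the ribosome, was 1688, 1439 and 1909 in control macrophages 1 to 3 and 598, 685 and 903 in control fibroblasts 1 to 3. Each macrophage library lies above each fibroblast library. With limma, and given ± SE here and below, the log2 difference was 1.22 ± 0.24 for Rps9 (limma adjusted p = 0.000691). Rps7 and Rpl32 were at 1.05 ± 0.29 and 0.90 ± 0.25, both called. At the other end, Rps21 was 246, 103 and 109.9 in macrophages and 172, 124 and 320.4 in fibroblasts, and Rpl14 and Rpl13a differed by -0.13 ± 0.30 and -0.06 ± 0.25. None of these 3 passed the test, and their groups overlap.

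In the depleted lung, 48 members were called higher in macrophages and none lower, where 12.5% of all genes were called higher and 10.6% lower. The median log2 difference was 0.79 against -0.07 over all genes, and all 78 were above 0. For 59 members the groups did not overlap, all higher in macrophages, against 17.2% of all genes separated that way and 20.4% the other way. The large subunit gave 29 of 47 and the small 19 of 31. Rpl6l, listed as a processed pseudogene, is among the 48 and among these 29. All 13 genes called in the control lung were among the 48, which is 27.1% of the latter, and these 2 comparisons share no library. That 35 more were called here does not show that depletion widened the gap: no member passed in the test of that difference, given with the depletion results.

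Rplp0, the protein that anchors the P stalk where elongation factors bind, had the lowest p in the depleted lung. It was 1091, 1173 and 1327 in depleted macrophages 1 to 3 and 397, 398 and 391 in depleted fibroblasts 1 to 3, and 597, 702 and 1177 against 488, 492 and 343 in the controls. The depleted fibroblast libraries lie close together, and control macrophages 1 and 2 lie well under the other 4 macrophage libraries. Its log2 difference was 1.59 ± 0.20 (limma adjusted p = 1.03e-05) in the depleted and 0.86 ± 0.28 (limma adjusted p = 0.0319) in the control lung. Its partners in the stalk, Rplp1 and Rplp2, differed by 1.02 ± 0.23 and 1.08 ± 0.27 in the depleted lung, both called, and by 0.66 ± 0.27 and 0.53 ± 0.32 in the control lung, neither called. Rpsa, the laminin receptor that is also a small-subunit protein, was 83.9, 159 and 103 in depleted macrophages and 61.9, 124 and 32.8 in depleted fibroblasts, which overlap, and was called in neither.

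Rps9 and Rpl32 were also among the genes with the lowest p in the depleted lung. Rps9 was 1307, 1911 and 1797 in macrophages and 480.0, 562 and 703 in fibroblasts, a log2 difference of 1.52 ± 0.22. Rpl32 was 1141, 1182 and 1281 against 500.4, 542 and 558, a difference of 1.17 ± 0.19. In each the macrophage libraries all lie above the fibroblast libraries. Rps6, the substrate of S6 kinase downstream of mTORC1, was 1055, 984 and 1146 against 562, 581 and 703 and was called (0.79 ± 0.20, limma adjusted p = 0.00718). Rps19, the member most often mutated in Diamond-Blackfan anaemia, was 1463, 1492 and 1833 against 907, 905 and 1131 and was called (0.70 ± 0.19, limma adjusted p = 0.0125). These calls of Rps6 and Rps19 rest on the scaling of the libraries. With totals set equal over all genes they were at 0.33 ± 0.19 and 0.24 ± 0.18 (limma adjusted p = 0.211 and 0.347). Neither was called with quantile normalisation. Rps27a, made as a fusion with ubiquitin, was called in the control and the depleted lung, at 0.80 ± 0.26 and 1.10 ± 0.23. Of the 5S particle proteins that can bind Mdm2, Rpl11 was called in the depleted lung (0.95 ± 0.25). Rpl5 was not (0.50 ± 0.23, 95% interval 0.00 to 0.99). Whether Rpl11 and Rpl5 differ was not tested. With totals set equal over all genes Rpl11 was not called either (0.49 ± 0.25, limma adjusted p = 0.153).

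**Figure D2:**
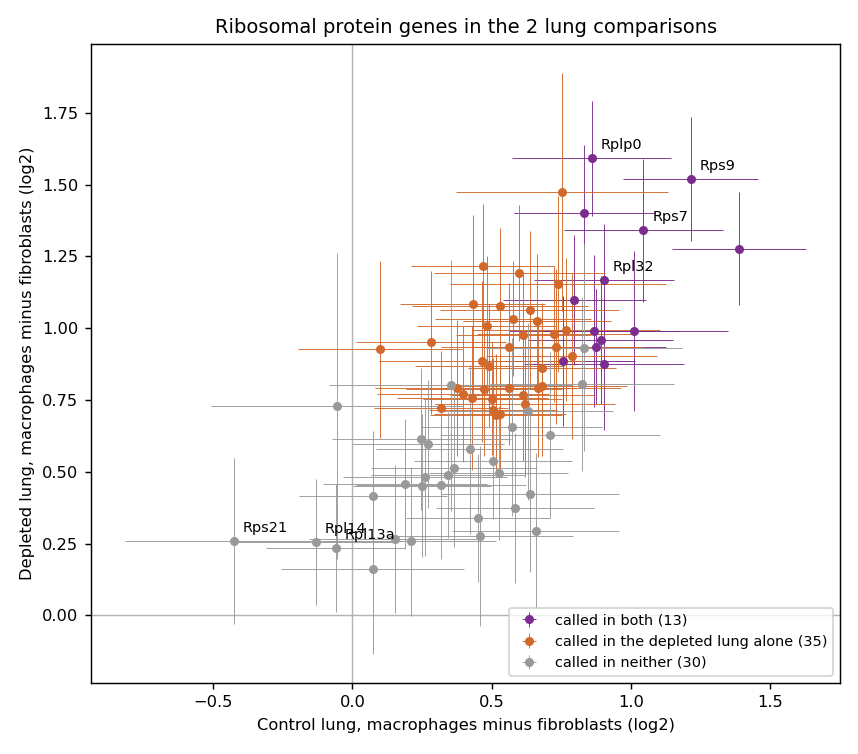
Log2 difference of macrophages minus fibroblasts for each of the 78 ribosomal protein genes in the control lung (x axis) and the depleted lung (y axis), with SE bars and colours for whether limma called the gene. The 13 genes called in both lie to the upper right, Rps9 and Rplp0 among them, and 30 were called in neither.

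In the depleted skin the 4 macrophage and 3 fibroblast libraries were compared, and 3 members, Rps9 and Rpl27a among them, were called higher in macrophages, where 11.4% of all genes were called higher and 24.0% in either direction. None was called lower, against 12.7% of all genes. The median log2 difference was 0.44 against -0.11 over all genes, with 72 of 78 above 0. The groups did not overlap for 6 members, all higher in macrophages, against 16.2% of all genes separated that way and 17.9% the other way, so by count the members fall short of the background. Rps9 was 986, 1537, 1624 and 905 in macrophages 1, 2, 3 and 5 and 655, 685 and 482 in fibroblasts 2, 4 and 5. Rpl27a was 334, 459, 472 and 284 against 220.3, 253 and 185. No library of one cell type reaches the other in these genes. The log2 differences were 1.02 ± 0.26 and 0.79 ± 0.24, with limma adjusted p of 0.016 and 0.0395. Rplp0, first in the depleted lung, was 2332, 3453, 3237 and 2093 against 1743, 2753 and 2005 in skin, a difference of 0.35 ± 0.25 with a 95% interval of -0.20 to 0.90.

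Rps9 was 1 of 2 members called in all 3 of these comparisons, which are 2 of the 3 called in skin and 2 of the 13 called in the control lung. With quantile normalisation Rps9 was not called in the control lung (0.62 ± 0.23, limma adjusted p = 0.0709) or the depleted skin (0.57 ± 0.21, limma adjusted p = 0.0719). It also lost both calls with no variance trend in the fit. The skin call was lost without fibroblasts depleted 5 and without macrophages depleted 2. How many members pass rests on the scaling of the libraries and on the fit. Total signal was 1079780 to 1314480 in lung macrophages and 865074 to 951467 in lung fibroblasts, and with totals set equal over all genes 2 members were called in the control lung, 10 in the depleted lung and 1 in the depleted skin, all higher in macrophages. Of the genes given above as called, Rps7, Rpl32, Rplp0 and Rps27a then lost the call in the control lung. Rplp1, Rplp2, Rpl11, Rps6 and Rps19 lost it in the depleted lung, and Rpl27a in the depleted skin. That scaling lowered the median of all genes from -0.08 to -0.41 in the control lung, and the member median relative to all genes moved only from 0.62 to 0.59. With quantile normalisation the numbers were 1, 16 and 0, and the member median relative to all genes was 0.26, 0.51 and 0.01. With no variance trend in the fit the numbers were 1, 3 and 0. Single libraries moved the number called too. In the control lung it was 4, 6 and 21 without fibroblasts control 1, 2 and 3, and 7 and 5 without macrophages control 1 and 3. In the depleted lung it was 21 and 31 without fibroblasts depleted 1 and 2, and 31 and 30 without macrophages depleted 2 and 3. In the depleted skin it was 5, 0, 1 and 12 without macrophages depleted 1, 2, 3 and 5, and 0 without fibroblasts depleted 5. The member median stayed above 0 in these comparisons under every alternative run. The share of all genes called under each alternative is not reported here, so these counts cannot be set against a background.

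Other cell states differed between the cell types in the same libraries. Mitochondria-encoded messages took 3.16 to 6.93% of signal in lung macrophages and 5.81 to 8.38% in lung fibroblasts. Immediate-early genes, which respond to handling of cells as well as to signals, took 0.578 to 0.912% and 0.440 to 0.626%. Of 12 proliferation genes, 8 were called higher in control and 7 in depleted lung macrophages, with medians of 2.03 and 2.04. The part of these in the ribosomal protein differences was not tested.

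Neutrophil depletion was tested next within each cell type. In lung macrophages no member was called with limma, where 0.497% of all genes were (0.0674% higher and 0.430% lower after depletion). An unadjusted limma p below 0.05 was found for 3 of 78 members, against 7.94% of all genes. The median log2 difference, depleted minus control, was 0.23 against 0.04 over all genes, and 67 of 78 members were above 0. With totals set equal over all genes these medians were 0.11 and -0.08. The member median was 0.14 without macrophages control 2 and 0.37 without macrophages depleted 1. The groups did not overlap for 7 members, all higher after depletion, against 6.21% of all genes separated that way and 6.02% the other way. The lowest p was that of Rplp0, at 0.59 ± 0.25 (95% interval 0.08 to 1.11, limma adjusted p = 0.518), with the libraries given above: depleted 1 to 3 fall inside or above the control range. Rps21 was 246, 103 and 109.9 in the controls and 151, 258 and 286 in the depleted, and the groups overlap. Rps18, a protein of the head of the small subunit, was 520.3, 469 and 499 in the controls against 622, 722 and 745 in the depleted, with no overlap, a difference of 0.49 ± 0.24 that misses the threshold (limma adjusted p = 0.626). Rps6 was 735, 844 and 745 in the controls against 1055, 984 and 1146 in the depleted, with no overlap and a difference of 0.45 ± 0.24 (limma adjusted p = 0.658). Markers of other cells moved with the groups: 12 of 14 neutrophil genes were measured and took 0.762 to 1.63% of control and 0.152 to 0.190% of depleted signal, and 12 lung epithelial genes took 0.240 to 0.901% and 0.943 to 2.13%. The 6 measured of 9 B and plasma cell genes took 0.0768 to 0.192% and 0.0215 to 0.0609%, the 16 macrophage markers 2.21 to 3.33% and 3.58 to 4.04%, and immediate-early genes 0.837 to 0.912% and 0.578 to 0.825%. Fibroblast markers, 15 of 16 measured, took 0.0246 to 0.0321% and 0.0330 to 0.0395%, with Pdgfrb, Lum, Fbln1 and Fbln2 at 0 reads in all controls and Col6a2 and Fbln2 in all depleted libraries. No gene of these lists other than the fibroblast markers was at 0 reads in a whole group, and their part in the result was not tested.

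In lung fibroblasts no member was called with limma, where 0.00843% of all genes were. Unadjusted limma p was below 0.05 for 1 of 78 members, against 5.06% of all genes. The median difference was -0.03 against -0.01 over all genes, with 34 of 78 members above 0. The groups did not overlap for 2 members that were higher and 2 that were lower after depletion, against 4.94% and 4.26% of all genes. The member with p below 0.05, Rpl27, was 239, 227 and 407 in the controls and 116, 223 and 259 in the depleted, which overlap, a difference of -0.57 ± 0.28 (limma adjusted p = 0.969). Rps12 averaged 46.6 in the controls and 21.5 in the depleted (n = 3 each), with no overlap, at -1.05 ± 0.54 (limma adjusted p = 0.969). Rps12 is among the lowest members, at an estimated 5.36, 8.04 and 15.9 reads in the controls and 2.14, 5.43 and 6.32 in the depleted. Its pseudogene row, Rps12-ps3, is described further on. That row was 17.1, 20.0 and 102 in the controls and 43.3, 54.7 and 21.3 in the depleted. With the row added to Rps12, the groups overlap. In both lung cell types the 95% intervals reached a median of 0.51 to either side on the log2 scale.

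In skin fibroblasts none of the 11780 genes tested was called with limma (0%), so no member was, and no member had an unadjusted p below 0.05 while 283 of all genes had. The median difference was 0.31 against 0.03 over all genes, and 73 of 78 members were above 0. The member median was 0.12 without fibroblasts depleted 4 and 0.48 without fibroblasts control 3. Rpl32 had the lowest p: it was 1037, 813 and 785 in controls 3, 4 and 5 and 1283, 1628 and 1053 in depleted libraries 2, 4 and 5. Each depleted library lies above the controls, and the difference was 0.58 ± 0.29 with a 95% interval of -0.05 to 1.20. Rpl3, which shapes the peptidyl transferase centre, was 703, 797 and 691 in the controls against 1033, 1029 and 942 in the depleted, also without overlap, at 0.46 ± 0.25 (-0.10 to 1.01). For 5 members the groups did not overlap, all higher after depletion, against 4.28% of all genes separated that way and 4.19% the other way. The 9 keratinocyte markers took 0.320 to 0.453% of signal in the controls and 0.139, 1.67 and 1.59% in depleted libraries 2, 4 and 5, and the 16 fibroblast markers 8.93 to 11.4% and 5.90 to 8.21%. The part of these was not tested.

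In skin macrophages 4 depleted libraries stood against control 3 alone, in a model of the 4 skin groups in which the lone control is assumed to vary like the rest. No member and none of the 12536 genes tested was called with limma (0%), and 4 members and 689 genes had an unadjusted p below 0.05. All 78 members were below 0, with a median of -0.64 against -0.06 over all genes, and for 66 members the control lay above all 4 depleted libraries, as it did for 24.5% of all genes, and it lay below them for 23.8%. Rps24, a small-subunit protein mutated in some families with Diamond-Blackfan anaemia, was 975 in control 3 and 311, 544, 581 and 326 in depleted libraries 1, 2, 3 and 5, a difference of -1.20 ± 0.45 (limma adjusted p = 0.838). Rpl36 was 691 in control 3 against 265, 412, 498 and 287, at -0.96 ± 0.43. Rplp0 was 3229 in control 3 against 2332, 3453, 3237 and 2093, so control 3 falls inside the depleted range. The direction of all 78 rests on this 1 control library. Mitochondria-encoded messages took 6.50% of signal in control 3 and 2.68 to 4.16% in the depleted libraries, and the 4 measured erythroid genes 0.0304% against at most 0.0102%. Keratinocyte genes took 0.636% against 0.140 to 0.340%, and 5 measured mast cell genes 0.0335% against at most 0.00902%. Macrophage markers took 2.55% against 2.74 to 3.45%, and fibroblast markers 0.221% against 0.0910 to 0.166%. Neutrophil genes, at 0.0119%, lay within the 0.00424 to 0.0202% of the depleted libraries. The part of these was not tested.

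**Figure D3:**
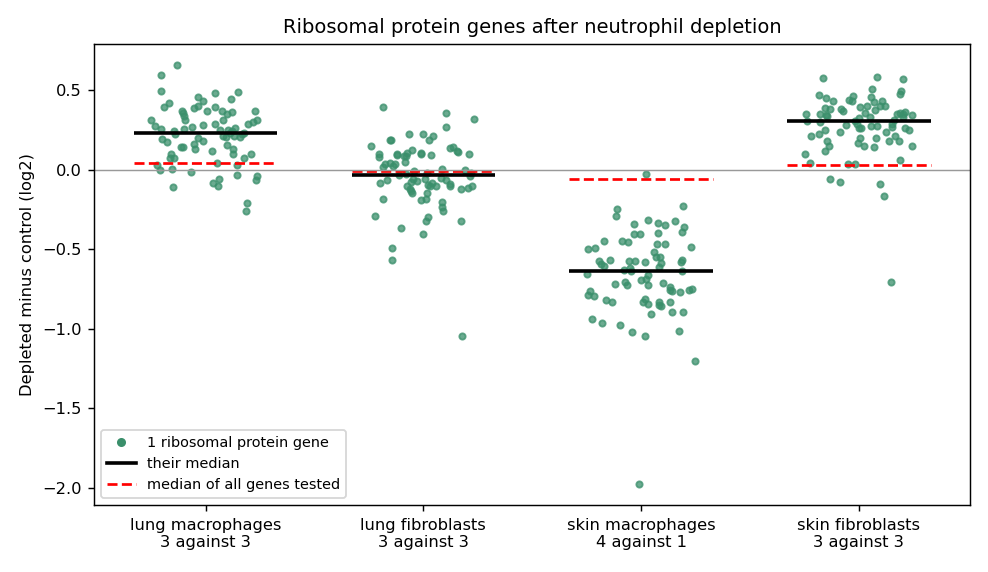
Log2 difference of depleted minus control libraries (y axis) for each of the 78 ribosomal protein genes in the 4 cell types (x axis, with the number of depleted and control libraries), with solid lines for the member median and dashed lines for the median of all genes tested. Member medians are 0.23, -0.03, -0.64 and 0.31, no gene shown passed the test, and the skin macrophage column rests on 1 control library.

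Whether depletion acted differently on macrophages than on fibroblasts was put to an interaction term in each organ. In lung no member was called with limma, where 0.0169% of all genes were. Unadjusted limma p was below 0.05 for 5.50% of all genes and for 2 of 78 members. They were Rps18 at 0.75 ± 0.33 and Rplp0 at 0.73 ± 0.35, with limma adjusted p of 0.876 for both, and the member median was 0.23 against 0.03 over all genes. That median was 0.09 without fibroblasts control 3 and 0.38 without macrophages depleted 1. In skin no gene was called (0%), 13 members and 524 genes had an unadjusted p below 0.05, and the member median was -0.93, against -0.15 over all genes; it rests on the same control library. Rps24, Rpl36 and Rpl32 had the lowest p, at -1.54 ± 0.56, -1.46 ± 0.53 and -1.15 ± 0.42 (limma adjusted p = 0.963 for each).

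Between libraries of one group, the ribosomal protein genes were high or low together. In depleted skin fibroblasts, library 5 was the lowest of 3 for 72 of 78 members and library 4 the highest for 68, where over all genes the shares were 26.2% and 37.7%. In control skin fibroblasts, library 3 was the highest for 73 members, against 38.6% of all genes. Depleted skin macrophages showed the same, with library 5 the lowest of 4 for 65 members (17.3% of all genes) and library 3 the highest for 63 (28.8%). In lung the largest such numbers were 65 of 78 lowest in depleted macrophages 1 (30.5% of all genes) and 63 of 78 highest in control fibroblasts 3 (36.0%). The summed member signal differed between the highest and the lowest library of a group by 1.25 to 1.34 times in lung and 1.45 to 1.74 times in skin. Once each member was taken as a share of the sum, its median coefficient of variation in depleted skin macrophages was 9.87%, against 29.2% for the signal itself.

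Each library named above stood at the same end of its group in mitochondria-encoded messages, but not each stood apart in immediate-early genes. This did not hold in every group. Control lung macrophages 2 was lowest for 53 of 78 members, with 4.64% in mitochondria-encoded messages against 3.44% in control 3. Depleted skin macrophages 5, the lowest, had 1.52% of its signal in immediate-early genes, against 0.606 to 0.831% in the other 3, and 2.68% in mitochondria-encoded messages, against 3.55 to 4.16%. Control skin fibroblasts 3, the highest of its group, had 0.308% in immediate-early genes, against 0.628 and 0.917%, and 8.93% in mitochondria-encoded messages, against 3.73 and 5.24%. In depleted lung macrophages the lowest library, 1, had 0.825% against 0.578 and 0.612% in immediate-early genes. Its share of mitochondria-encoded messages was 3.16%, against 4.57 and 5.07%. Depleted skin fibroblasts 5 and 4, the lowest and the highest of their group, were alike in immediate-early genes, at 0.689 and 0.674%, and differed in mitochondria-encoded messages, at 4.44 and 7.02%. Control lung fibroblasts 3, the highest, had 0.507% in immediate-early genes, between the 0.440 and 0.602% of the other 2, and 8.38% in mitochondria-encoded messages, against 7.49 and 5.99%. These values lie beside each other in few libraries, and their part was not tested.

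**Figure D4:**
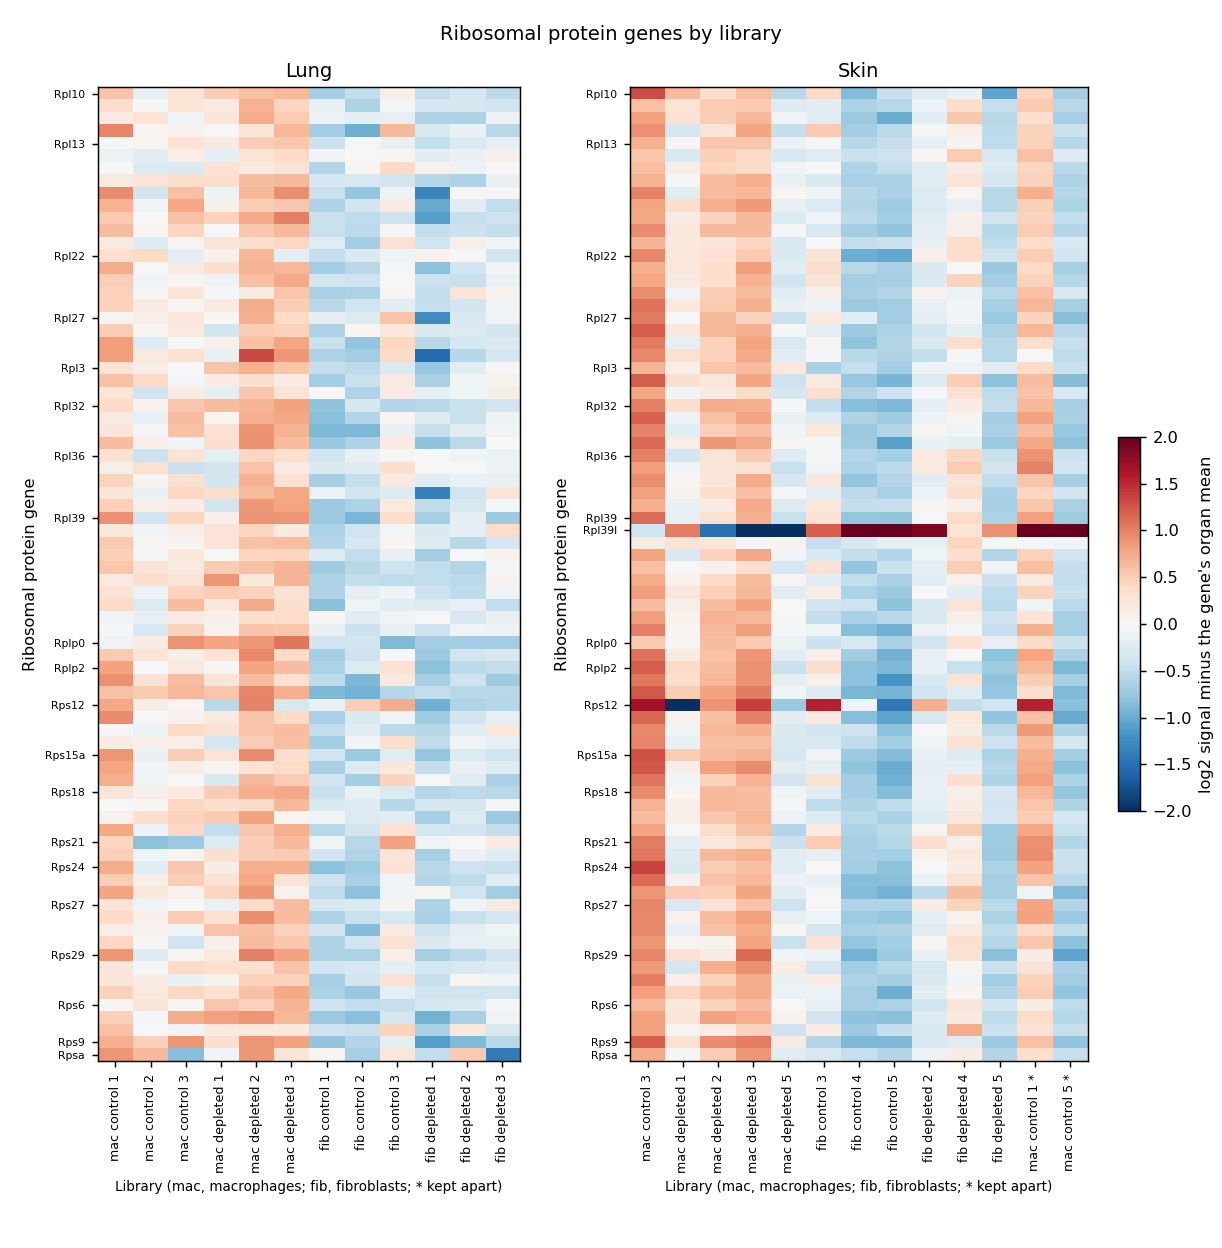
Each row is a ribosomal protein gene, with some rows named, and each column a library, with lung on the left and skin on the right. Colour gives the log2 signal minus the mean of that gene over the compared libraries of its organ, and an asterisk marks the 2 libraries kept apart. Colours end at 2 and -2. Most columns hold mainly one colour, red in most macrophage libraries and blue in most fibroblast libraries, with depleted skin macrophages 5 near white and Rpl39l and Rps12 apart from the other rows in skin.

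The libraries kept apart can be placed on the same scale. Control 1 lay above all 6 skin fibroblast libraries for 69 of 78 members, against 14.2% of all genes, and within the range of the 5 skin macrophage libraries for 73. Control 5 lay within the fibroblast range for 72 of 78, below it for 6 and above it for none, against 11.6% of all genes above it. It lay within the macrophage range for 7. The shares of all genes within these ranges are not reported here. For Rps9 control 1 was 1203 and control 5 was 463, against 428 to 685 in skin fibroblasts and 905 to 1860.1 in skin macrophages. So 1 of these libraries with fibroblast markers had ribosomal protein levels in the macrophage range, and the other did not.

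Between organs only shares within a library were compared, because the tables were normalised separately. Over the 77 genes in both, the share of the summed member signal differed by more than 2-fold for 7 in macrophages and 11 in fibroblasts. Rplp0 was 2.20% of the member signal in lung and 4.70% in skin macrophages, and 1.52% and 5.15% in fibroblasts. Rpsa was 0.254% and 0.959% in macrophages, and Rps26, which has a pseudogene row in lung, 0.496% and 1.27%. In the other direction Rps29 was 1.69% in lung and 0.735% in skin macrophages, and Rps21 0.407% and 0.200%. Rpl27 differed the most, at 0.727% in lung and 0.120% in skin macrophages, a ratio of 6.04, and 0.852% and 0.130% in fibroblasts, a ratio of 6.56. The organs were handled in separate tables with depths that do not overlap, so organ and table cannot be told apart.

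Rows named as pseudogenes bear on some of these organ ratios. Processed copies of ribosomal protein messages are many in the mouse genome, and reads of a member and a near-identical copy can be assigned to either. There were 14 such rows for 12 members in lung and 3 such rows in skin. Rpl27-ps3 held 83.6 to 87.1% of the signal of the pair with Rpl27 in 5 skin macrophage libraries and 77.2 to 85.1% in 6 skin fibroblast libraries, but 0.685 to 11.6% in lung macrophages and 2.61 to 18.8% in lung fibroblasts. With the pseudogene row added, an alternative chosen after seeing the data, the lung to skin ratio of Rpl27 went from 6.04 to 0.954 in macrophages and from 6.56 to 1.32 in fibroblasts. Rpl10-ps3 held 42.9 to 71.2% of its pair in skin macrophages and 28.7 to 35.6% in lung macrophages, and the ratio of Rpl10 went from 1.67 to 0.999. Rps26-ps1, a lung row, held 29.5 to 43.3% of its pair in macrophages and 24.2 to 49.6% in fibroblasts, and adding it moved the lung to skin ratio of Rps26 from 0.390 to 0.620 and from 0.402 to 0.621. Rpl27 and Rps26, counted above among the genes beyond 2-fold, then fell within it in both cell types. Rps12-ps3 held 28.8 to 71.9% in lung and 39.4 to 94.3% in skin. Rpl9-ps6, a lung row, was 227, 185 and 32.8 in control and 65.7, 3.23 and 17.7 in depleted lung macrophages, and 86.2, 224 and 222 and 3.40, 199 and 290.1 in fibroblasts, while Rpl9 ranged from 377 to 748. The row thus spans from near 0 to 290.1 within a group in which Rpl9 itself is steady. Values of single members with such rows are uncertain by these amounts, and adding the rows to their members left 14, 49 and 4 members called higher in macrophages in the control lung, depleted lung and depleted skin.

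**Figure D5:**
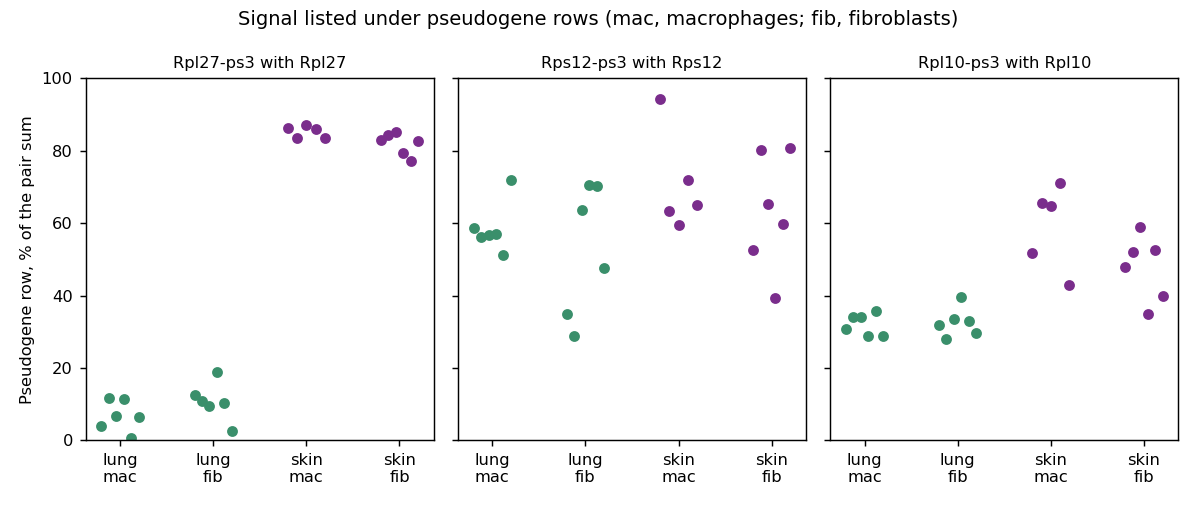
Signal of a pseudogene row as a percentage of the sum of that row and its member gene (y axis) in each compared library, by organ and cell type (x axis), for Rpl27, Rps12 and Rpl10. Rpl27-ps3 takes 0.685 to 18.8% in lung and 77.2 to 87.1% in skin, with no overlap.

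Genes that work with the ribosome were read from lists, with the 3 cell type comparisons in the order control lung, depleted lung and depleted skin. Of 6 genes that encode ribosomal proteins but fall outside the rule, such as the ubiquitin-like fusion Fau, 2, 2 and 1 were called higher in macrophages. Fau was 684, 489 and 935 in control lung macrophages and 173, 215 and 246 in control lung fibroblasts, a log2 difference of 1.69 ± 0.29, more than any member there, with limma adjusted p = 0.000137. Of 15 elongation factors and other TOP genes, 5, 6 and 4 were higher, and 1 was lower in the depleted lung, with medians of 0.74, 0.55 and 0.27. Pabpc1, the poly(A)-binding protein, led with 1.66 ± 0.28, 1.89 ± 0.25 and 0.96 ± 0.19, and Eef1a1 was at 0.87 ± 0.22 in the control lung. Of 13 subunits of initiation factor 3, 2, 4 and 1 were higher.

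The machinery that makes ribosomes was read the same way. Of genes for ribosomal RNA synthesis and ribosome assembly, 1 of 49 was higher (Npm1, also in the list of TOP genes, 1.01 ± 0.33) and 1 lower (Imp3, -1.88 ± 0.64) in the control lung, 3 higher and 1 lower of 49 in the depleted lung, and 2 higher of 53 in the depleted skin, with medians of 0.05, -0.05 and 0.03. Of the mitochondrial ribosomal proteins, which build a separate ribosome, 2 of 77, 5 of 77 and 8 of 78 were higher and 1 was lower, in the depleted lung, with medians of 0.07, 0.21 and 0.27. Of genes of mTORC1 and Myc control, 1 of 18 was higher and 1 lower in the control lung, 1 and 3 of 18 in the depleted lung, and 1 and 0 of 20 in the depleted skin. Myc was higher in lung macrophages, at 2.24 ± 0.80 in the control and 2.49 ± 0.71 in the depleted lung, and Eif4ebp1, a repressor of translation that mTORC1 switches off, was higher in depleted skin macrophages at 1.23 ± 0.28. Myc itself was at -2.01 ± 0.91 in the depleted skin and did not pass (limma adjusted p = 0.145). Of 19 members linked to Diamond-Blackfan anaemia, 4, 13 and 0 were called higher, beside 13, 48 and 3 of all 78 members and 12.2, 12.5 and 11.4% of all genes. No gene of these lists was called in any depletion comparison. Whether a list differs from the ribosomal protein genes was not tested.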

How the data were processed

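RNA-seq libraries of sorted mouse cells were read from 1 deposited table per organ. The authors deposited normalised signal per gene on a linear scale; the tools named, per the submitters' processing notes, are limma 3.46, RSEM 1.7.1, cutadapt 1.7.1 and CASAVA 1.8, with build mm10. The aligner was not given in the sources used here, nor was the normalisation. Read depth was estimated by taking a signal as reads plus 0.5 times a constant per library. Within 0.01 of a whole read, 70.0 to 82.2% of lung and 27.4 to 58.0% of skin values were whole, so values were not treated as counts. Depth was far lower in lung, which limits low members there.

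Log2 signal was tested after adding a pseudocount (1.04 in lung, 1.001 in skin, which is the mean total of the libraries divided by 1000000) with a limma 3.58.1 trend fit in R 4.3.3 and Benjamini-Hochberg adjustment over all genes with at least 1 part in 1000000 in as many libraries as the smaller group holds. A fold change on this scale understates low genes. Each comparison was fitted on its own groups, except skin macrophages and the interactions, fitted on 4 groups of an organ. The fits were also run on simulated data with known changes, with the outcome not reported here. Each gene was drawn on its own there, so genes that move together were not covered. One lung row that names no gene (0.000181 to 0.00153% of signal) was left out. Tables were normalised separately, so tests stay within an organ. Lengths and pseudogene status came from GENCODE M21, and promoters from RefSeq. Python 3.11.15, pandas 2.3.3, numpy 2.4.6 and matplotlib 3.10.9 were used.

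The members and the gene lists were chosen with earlier results of these data known. Members named are those called with the 5 lowest p-values per direction, filled to 3 per direction by lowest p, the 3 highest and lowest per kb, the stalk genes, Rpl5, Rpl11, Rps6, Rps19, Rps27a and the minor paralogues with their main copies, and up to 2 genes of each companion list by lowest p. Some genes that this rule names are not reported here. Rows with pseudogene copies, and members described by co-movement, organ share or their copies, were chosen after their values were seen. Alternatives varied pseudocount, filter, scaling, variance trend, replicate block, fitted groups and libraries. The labels do not say whether equal replicate numbers pair libraries across groups, and the main fits treated libraries as unpaired. The 2 skin libraries that went against their label entered no comparison except where stated.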

Additional observations from a re-analysis of the deposited data

Results flagged for a closer look

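Rpl39l in depleted skin macrophages was 5.91 in library 1, far from the 0.107 to 1.03 of the other 3 libraries: the gap to the nearest was 0.841 of the whole range, above the critical value of 0.829. It was 1 of 40 group values examined for such a gap, and chance alone sets apart about 1 in 20 groups.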

How the results depend on the processing

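The number of members called in depletion comparisons and in interactions was 0 under each alternative run. In the cell type comparisons every called count was of genes higher in macrophages, except 1 lower gene in skin in each of 2 settings (the replicate block, and without macrophages depleted replicate 1). In the order control lung, depleted lung and depleted skin (13, 48 and 3 as reported), the counts were 2, 10 and 1 with equal totals over all genes, 2, 10 and 1 with equal totals over genes that are not members, 1, 16 and 0 with quantile normalisation, and 1, 3 and 0 with no variance trend. In depleted skin 10 times the pseudocount gave 5. Leaving out 1 library gave 4 to 21, 21 to 53 and 0 to 12. The cause was not tested, and the shares of all genes called under these settings are not reported here.

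With the replicate number as a block the counts were 9, 53 and 12 (11 higher, 1 lower), and the skin macrophage median moved from -0.64 to -0.21. Correlations of the deviations of same-numbered libraries over all genes were -0.05 to 0.15, which does not settle whether the numbers pair libraries. In the depleted skin library 5 was lowest for 65 members in macrophages and 72 in fibroblasts. In the depleted lung library 1 was lowest for 65 and 50. In the control lung library 1 was highest for 50 members in macrophages and lowest for 39 in fibroblasts. Pairing of the members by number was not tested.

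The lung fibroblast depletion median of -0.03 ran from -0.10 without fibroblasts control replicate 1 to 0.15 without fibroblasts control replicate 3, and was 0.03 without fibroblasts depleted replicate 1. With the 2 libraries kept apart added as labelled the skin macrophage median was -0.01 and the skin interaction median -0.29, but these libraries carry fibroblast markers, so that fit says nothing about macrophage controls. The skin macrophage comparison and the skin interaction could not be fitted without macrophages control replicate 3. Among named genes, 101 values lost the call (33 of them with a library left out) and 6 gained it. Lung depth, at 3591 to 12059 reads over all members, limits single low members such as Rps12.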

Other observations

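A copy of Rps27 outside the rule, Rps27rt, known as a retrogene of Rps27, differed between the organ tables. Its signal was 723 to 1467 in 6 lung macrophage and 644 to 994 in 6 lung fibroblast libraries, but 32.4 to 66.5 in 5 skin macrophage and 16.2 to 48.5 in 6 skin fibroblast libraries. The tables were normalised separately, and organ and table cannot be told apart.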
